A study of Caenorhabditis elegans with 26 samples.

Results

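Small RNAs mapping to genes of the X chromosome of the nematode Caenorhabditis elegans were examined along the chromosome and over 3 genotypes. A locus was taken in when it was a gene on X in the WBcel235 annotation, its transcripts together held 30 or more reads over the 6 libraries, and its name did not belong to gene groups left out (vitellogenin, meg, F-box and related, nuclear receptor, histone, ribosomal protein and collagen genes, and the X-signal and dosage compensation genes). Of 2880 X genes in the table, 525 reached 30 reads, 24 of these were left out by name, and 501 loci remained out of 22271 genes in all. They comprised 453 protein-coding genes and 48 pseudogenes. Of the 3 genotypes, all without a tethered protein and each profiled in 2 libraries of whole worms, the control was wild type (WT). The second was mut-16(DE6R), called the single mutant below, and the third was rde-3 mut-16(DE6R), called the double mutant, which carries mut-16(DE6R) together with an rde-3 mutation. The labels give no age, stage, sex or temperature, do not say what DE6R changes, and do not name the rde-3 allele. Nothing in them says that the libraries of a genotype are separate cultures, so the p-values reflect how far these libraries differ among themselves, possibly for technical reasons only.

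As background, most endogenous siRNAs of this worm are antisense to genes and are made by RNA-dependent RNA polymerases. One branch is amplified in perinuclear Mutator foci, which the scaffold protein MUT-16 assembles and in which RDE-3, a nucleotidyltransferase also called MUT-2, adds poly(UG) tails to RNA templates. Argonautes of the WAGO type carry these siRNAs and silence pseudogenes, repeats and some coding genes, while another branch, loaded into CSR-1, targets genes that the germline expresses. The X chromosome is largely silent in early germ cells and is expressed late in oogenesis, and germline-expressed genes are sparser on it than on the autosomes.

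Counted reads per library ranged from 515300 to 1571194. A single gene, F56H9.8 on chromosome V, held 37.5% to 55.5% of them, so percentages of reads are given outside F56H9.8 and mitochondrial genes. CPM, the reads of a locus scaled to a common library size, used edgeR's TMM factors, which ranged from 0.582 in WT to 1.35 in the single mutant. On this scale the median gene hardly moved between genotypes, whereas scaling by library totals shifted the median of all tested genes in the single mutant against WT from −0.09 to 1.09 on the log2 scale, and totals without F56H9.8 shifted it to 0.74. Every fold change here is thus relative to the bulk of genes. Small falls in the single mutant against WT depend on that choice. Reads at mut-16 were 5 and 2 in WT, 2 and 5 in the single mutant and 7 and 8 in the double mutant. The counts on mut-2, the gene of RDE-3, were 0 and 1, 3 and 4, and 0 and 2. Neither count checks a genotype, since small RNAs do not measure a gene's own transcript.

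The X loci held 8.55% and 8.69% of reads in the WT libraries, 8.05% and 8.07% in the single mutant, and 2.52% and 2.51% in the double mutant. The share was thus 8.62% ± 0.0945 (SD, n = 2) in WT, 8.06% ± 0.0116 in the single mutant and 2.51% ± 0.0028 in the double mutant, and the libraries of the 3 groups did not overlap. With 2 libraries against 2, an exact permutation test cannot give a p below 0.333, so no test was made of these shares. In bulk libraries of whole worms, fewer cells of a type and less RNA per cell cannot be told apart. With all counted reads as the denominator the order of WT and the single mutant turned round, to 4.06% and 4.68%, with 1.01% in the double mutant. The 10 loci with the most reads held 45.1% of the reads of all 501. Without them the shares were 4.58%, 4.58% and 1.37%. Pseudogenes among the loci went from 1.62% ± 0.0488 in WT to 0.876% ± 0.0196 and 0.117% ± 0.0249. Protein-coding loci held 7.00% ± 0.0457, 7.18% ± 0.0081 and 2.4% ± 0.0277, so their share was not lower in the single mutant than in WT.

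Expression filtering kept 412 of the 501 loci for the test by edgeR's quasi-likelihood method, with Benjamini-Hochberg adjustment over all 5312 genes tested at 0.05. Below, a locus is said to reach the filter in a group when both libraries of that group reach its cut. Of the 412 loci, 242 did so in WT, 43 of them in WT alone, and a fall of these 43 was in part set by the filter. The other 170 entered the test with the help of a mutant library, and 122 of them reached the filter in the single mutant alone. A rise against WT of those 170 was in part set by the filter. In the single mutant against WT, 145 loci rose (35.2%) and 167 fell (40.5%), beside 22.1% and 36.6% of all tested genes. The median log2 fold change was −0.02 over the loci and −0.09 over all tested genes. Scaled by library totals, 241 of the 412 were higher and 100 lower, beside 3394 and 1005 of all 5312 genes tested. Totals without F56H9.8 gave 211 higher and 127 lower of 403, beside 2925 and 1270 of 5339. On neither of these scales was the share of rises above that of all tested genes. Leaving out mut-16(DE6R) replicate 2, the deepest library, gave fewer rises and fewer falls, over the loci and over all tested genes alike. The medians were then −0.08 and −0.13.

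In the double mutant against WT, 264 loci fell (64.1%) and 24 rose (5.83%), beside 37.9% and 26.8% of all tested genes. The fall was 8-fold or more at 191 of the 412 loci. The same count over all tested genes was not worked out, so the 191 has no background to be read against. The median log2 fold change was −2.65, against −0.03 over all tested genes. When the double mutant was set against the single mutant, 307 loci fell (74.5%) and 13 rose (3.16%), beside 26.2% and 16.5%. The median was −2.28, against −0.02 over all tested genes. For the 122 loci that reached the filter in the single mutant alone, a fall in this comparison was in part set by the filter. Another 12 reached it in the double mutant alone, and a rise of these was in part set by it. Of the 307 falls, 261 stayed under each of the 3 other scalings and 202 under every alternative setting. The count of rises moved both ways with the setting. Against WT, scaling by library totals gave 73 rises of 412 loci, beside 2944 of all 5312 tested genes. Leaving F56H9.8 out of those totals gave 80 of 403, beside 3109 of 5339. Upper-quartile factors gave 43, beside 2369 of 5312, and DESeq2 gave 10, beside 747. Against the single mutant the counts were 12, 26, 21 and 5 in the same order, beside 674, 2052, 1284 and 217. In each of these settings the share of rises was lower among the loci than among all tested genes. Rises were fewer without single libraries: 14 against WT without WT replicate 2 and 15 without rde-3 mut-16(DE6R) replicate 2, and 7 and 6 against the single mutant without mut-16(DE6R) replicate 2 and rde-3 mut-16(DE6R) replicate 2. These comparisons share libraries, so each is given with its own values and they are not independent of each other.

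The 2 steps were then read in order for each locus, first the single mutant against WT, then the double mutant against the single mutant. In 127 loci (30.8%) reads fell in both steps, beside 17.7% of all tested genes. That class held 73 loci with library totals (17.7%, all tested genes 10.7%) and 74 with totals without F56H9.8 (18.4%, all tested genes 11.1%), and 60 of the 127 stayed in it under each of the 3 other scalings. In 122 loci (29.6%) they rose in the single mutant and then fell, beside 4.54%. A further 58 (14.1%) were not called in the first step and fell in the second, beside 4.01%, and 35 (8.5%) fell in the first and were not called in the second, beside 15.6%. The remaining classes were smaller: 36 loci were called in neither step (8.74%, beside 27.7%), 21 rose and were then not called (5.1%, beside 13.9%), 6 were not called and then rose (1.46%, beside 9.6%), 5 fell and then rose (1.21%, beside 3.29%), and 2 rose in both (0.485%, beside 3.61%).

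**Figure D1:**
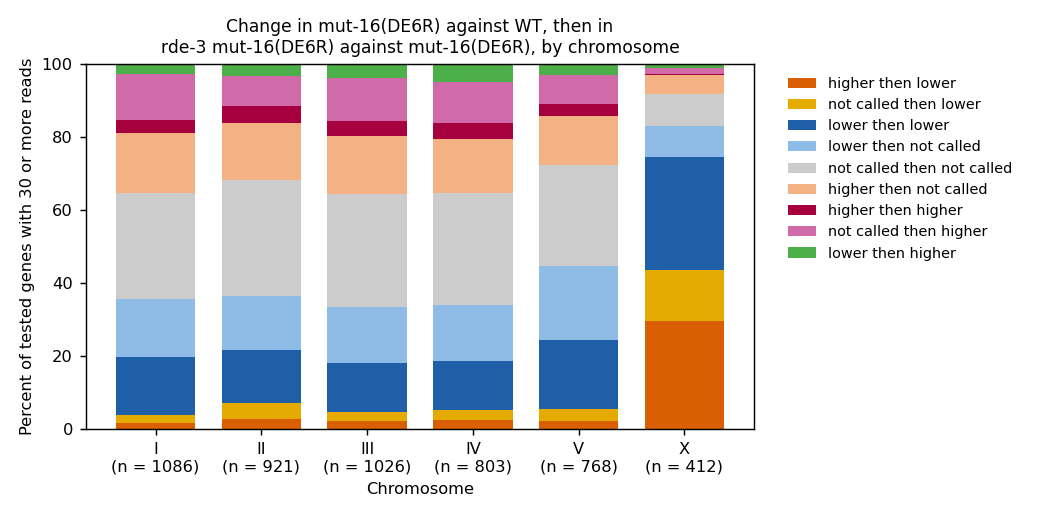
Stacked bars give, for each chromosome, the percent of tested genes chosen by the same read minimum and name exclusions (y axis) that fall in each of 9 classes of calls, first the single mutant against WT and then the double mutant against the single mutant. Genes that rose and then fell make up 29.6% on X and from 1.84% to 2.82% on the autosomes.

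The class that rose and then fell was compared with autosomal genes picked by the same read minimum and name exclusions. It held 1.84% of tested genes on chromosome I, 2.82% on II, 2.14% on III, 2.62% on IV and 2.34% on V, together 107 of 4604 (2.32%). Among genes that reached the filter in WT it held 40 of 242 on X (16.5%) and 57 of 3472 on the autosomes (1.64%). Among protein-coding genes it held 116 of 376 on X (30.9%) and 103 of 4354 on the autosomes (2.37%). The count on X depended on the setting. It was 193 with library totals (46.8%, autosomes 7.19%), 136 with upper-quartile factors (33%, autosomes 2.41%) and 59 with DESeq2 (14.3%, autosomes 0.521%). With mut-16(DE6R) replicate 2 left out, the share was lower on X and on the autosomes alike. Of the 122 loci, 106 stayed in the class under each of the 3 other scalings and 57 under every setting. No test of the difference between chromosomes was made, since genes are not replicates of a condition.

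**Figure D2:**
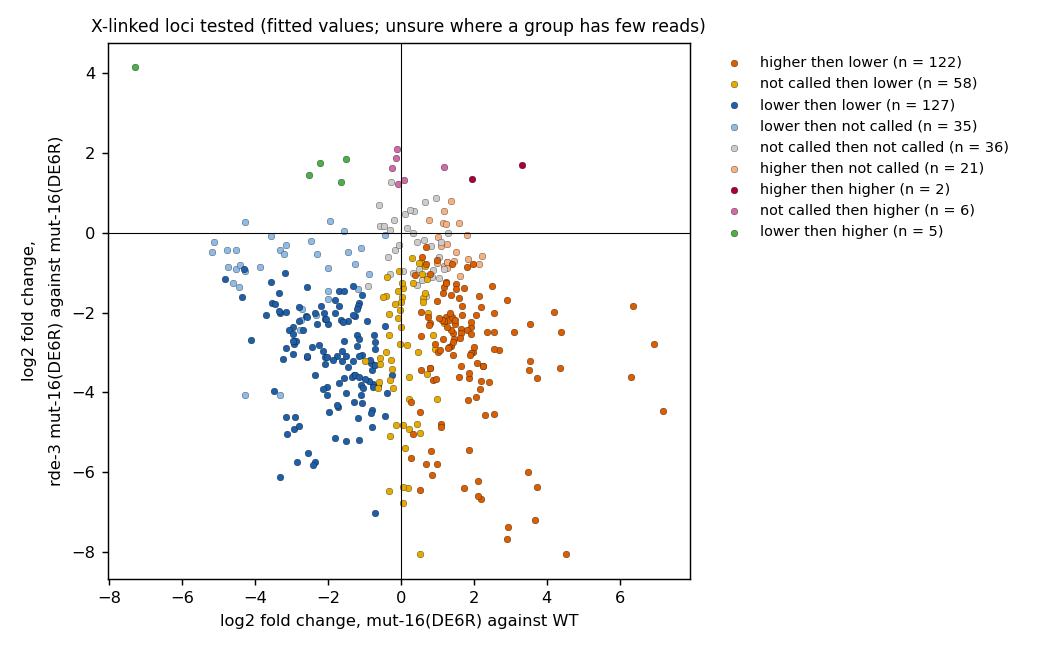
Each point is 1 of the 412 tested X loci, with the log2 fold change in the single mutant against WT on the x axis and that in the double mutant against the single mutant on the y axis, coloured by class. Most points lie below 0 on the y axis (median −2.28), while on the x axis they spread to both sides of 0 (median −0.02); the points farthest out are fitted values of loci with few or no reads in a group.

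Among loci that fell in both steps, F02C12.3, a protein-coding gene known by its sequence name at X:13396973-13397782, had the most reads of all. Its level was 9917 and 10643 CPM in WT, 4816 and 4789 CPM in the single mutant, and 269 and 308 CPM in the double mutant. The groups did not overlap, and the larger fold change came with the second step. Its log2 fold change was −1.10 (SE 0.06, edgeR adjusted p = 8.5e-73) in the first step, which turned to 0.10 with library totals, and −4.05 (SE 0.08) in the second. got-1.2, an aspartate aminotransferase gene at X:16791347-16793126, had 5238 and 5707 CPM in WT, 3067 and 3184 CPM in the single mutant, and 111 and 105 CPM in the double mutant. It too had its larger fold change in the second step. The log2 fold change in that step was −4.86 (SE 0.10), and that in the first was −0.81 (SE 0.06), which turned to 0.39 with library totals and 0.05 with totals without F56H9.8.

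Other loci of this class had their larger fold change in the first step. T22B2.2 (X:3920401-3923877) had 2528 and 2742 CPM in WT, 398 and 368 CPM in the single mutant, and 76.9 and 86.4 CPM in the double mutant. M02F4.1 (X:3027180-3029130) had 1960 and 2101 CPM, then 194 and 205 CPM, then 76.9 and 64.8 CPM. Both loci stepped down in each step without overlap, with a log2 fold change in the first step of −2.80 (SE 0.08, edgeR adjusted p = 1.9e-289) for T22B2.2 and −3.34 (SE 0.08) for M02F4.1. The second step was smaller, at −2.21 (SE 0.13, edgeR adjusted p = 5.6e-59) and −1.51 (SE 0.15, edgeR adjusted p = 1.7e-21). skr-21, a gene of the Skp1-related family, had 779 and 714 CPM in WT, 26.2 and 25.7 CPM in the single mutant, and 16.9 and 6.75 CPM in the double mutant. Its first step was −4.84 (SE 0.13, edgeR adjusted p = 5.8e-281) and its second −1.16 (SE 0.37, edgeR adjusted p = 0.0059).

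Pseudogenes made up 21 of the 127 loci that fell in both steps (16.5%) and 4 of the 10 X loci with the highest WT level. F22H10.5 had 2184 and 2304 CPM in WT, 481 and 551 CPM in the single mutant, and 38.4 and 67.5 CPM in the double mutant. F23D12.9 had 1975 and 2212 CPM, then 500 and 513 CPM, then 55.4 and 60.7 CPM. F46F2.4 had 1999 and 2181 CPM, then 324 and 365 CPM, then 35.4 and 45.9 CPM. These pseudogenes moved in much the same way, with a first step between −2.05 and −2.58 and a second between −3.09 and −3.28 on the log2 scale, all without overlap of the groups. The smaller pseudogene Y60A9A.3 fell by 3.32 (SE 0.09) and then by 2.01 (SE 0.21, edgeR adjusted p = 3.1e-21). Reads of near-identical copies cannot be told apart in the counts, and this bears most on pseudogenes.

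Some loci that fell in both steps held no read, or nearly none, in the double mutant. The pseudogene C02B8.2 had 66 and 65 reads in WT, 4 and 22 in the single mutant and 0 and 0 in the double mutant. Against a floor of 3 reads over the 2 libraries its CPM was at least 41.2-fold lower there than in WT. lbp-1, a gene of the fatty-acid-binding protein family, had 21 and 31 reads, then 6 and 14, then 0 and 0, which was at least 16.3-fold lower than in WT. C44C1.1 had 149 and 211 reads in WT, 23 and 59 in the single mutant and a single read in the double mutant. Its ratio of WT to the double mutant was 339, with a 95% counting interval whose lower end is 60.5. Over all 501 loci, 36 had no read in the double mutant, 4 had none in WT and 1 had none in the single mutant. The double mutant libraries were the shallowest, at 515300 and 584502 counted reads, so zeros come more easily there. The share of such genes over all genes was not worked out.

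**Figure D3:**
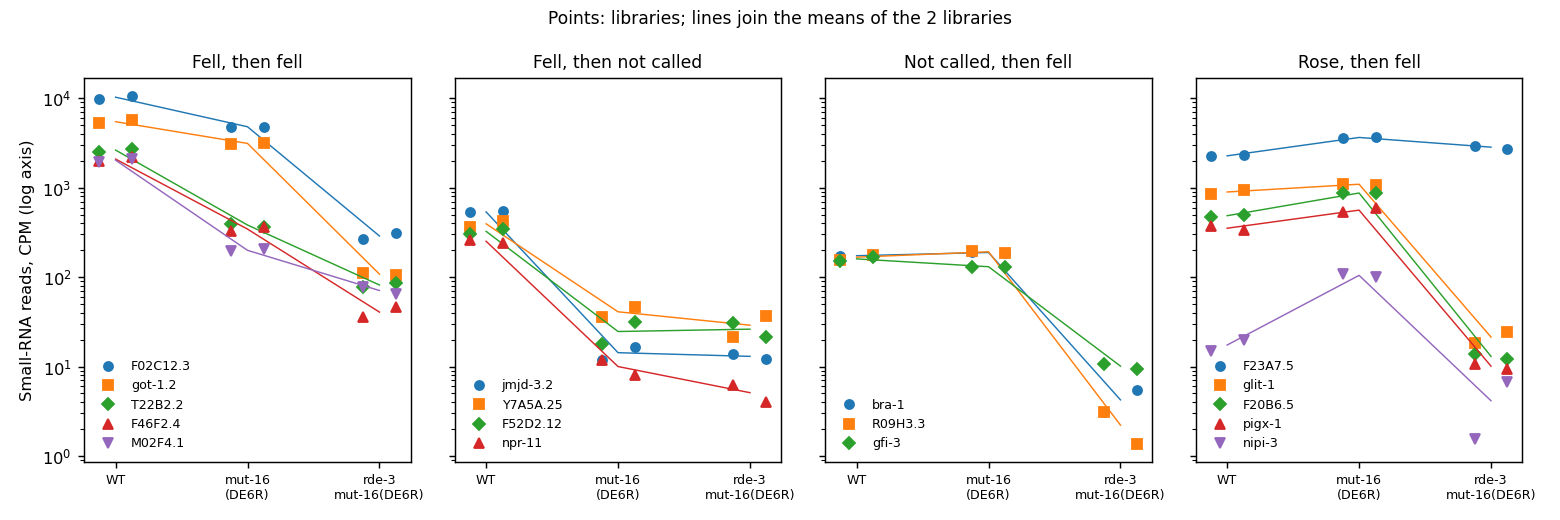
CPM in each of the 6 libraries (points, log axis) of loci from 4 classes, with lines joining the means of the 2 libraries of each genotype. F02C12.3 goes from about 10280 CPM in WT to 4802 and 288 CPM, jmjd-3.2 drops in the first step alone, bra-1 in the second alone, and nipi-3 rises from 17.4 to 105 CPM and then drops to 4.14 CPM, while F23A7.5 keeps a high level throughout.

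Another class fell in the single mutant and was not called lower or higher in the second step. jmjd-3.2, of the JmjC histone demethylase family, had 531 and 542 CPM in WT, 11.9 and 16.7 CPM in the single mutant, and 13.8 and 12.1 CPM in the double mutant. WT lay far above both mutants, which overlapped each other. The first step was −5.12 (SE 0.16, edgeR adjusted p = 4.0e-228) and the second −0.24 (SE 0.40, edgeR adjusted p = 0.67). npr-11, a neuropeptide receptor gene, had 263 and 241 CPM in WT, 11.9 and 8.09 CPM in the single mutant, and 6.15 and 4.05 CPM in the double mutant. Its first step was −4.75 (SE 0.21, edgeR adjusted p = 1.9e-113), and its second step of −0.85 (SE 0.57, edgeR adjusted p = 0.23) missed the threshold though the mutant groups did not overlap. The pseudogene Y7A5A.25 and the coding gene F52D2.12 had first steps of −3.2 (SE 0.14) and −3.57 (SE 0.16). flr-4, a protein kinase gene, had 18 and 28 reads in WT, 0 and 3 in the single mutant and 0 and 1 in the double mutant, a ratio of WT to single mutant of 30.6 (95% counting interval 9.82 to 154). Over the 35 loci the median level was 41.7 CPM in WT, 7.26 CPM in the single mutant and 3.47 CPM in the double mutant. At these levels, near those of a few reads, a further fall may not be detectable at this depth.

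The opposite order, no call in the first step and a fall in the second, was seen in 58 loci. bra-1, a homologue of a BMP receptor-associated protein, had 173 and 174 CPM in WT, 193 and 184 CPM in the single mutant, and 3.08 and 5.40 CPM in the double mutant. The second step was −5.40 (SE 0.30, edgeR adjusted p = 1.4e-70), while the first was 0.11 (SE 0.12, edgeR adjusted p = 0.46). R09H3.3 had 105 and 143 reads in WT, 165 and 394 in the single mutant, and 2 and 1 in the double mutant. Its ratio of the single mutant to the double mutant was 88.2 (95% counting interval 30 to 429). F12D9.2 had 14 and 21 reads, then 38 and 61, then 0 and 0, at least 15.6-fold lower in the double mutant than in the single mutant. syx-3, a syntaxin gene, had 11 and 9 reads, then 15 and 26, then 0 and 0, at least 6.47-fold lower. Of the 58 loci, 34 kept this class with upper-quartile factors and 8 with library totals.

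Loci that rose and then fell included several with a high level in WT. F20B6.5 had 474 and 498 CPM in WT, 862 and 883 CPM in the single mutant, and 13.8 and 12.1 CPM in the double mutant. All groups were apart, with a first step of 0.84 (SE 0.08, edgeR adjusted p = 6.2e-24) and a second of −6.06 (SE 0.17, edgeR adjusted p = 3.5e-258). pigx-1, named for the PIG-X subunit of GPI-anchor synthesis, had 371 and 334 CPM, then 533 and 589 CPM, then 10.8 and 9.45 CPM. Its steps were 0.69 (SE 0.09, edgeR adjusted p = 9.8e-14) and −5.80 (SE 0.20, edgeR adjusted p = 6.8e-186). glit-1, a homologue of the junction protein gliotactin, had 858 and 932 CPM, then 1105 and 1082 CPM, then 18.5 and 24.3 CPM. Its rise was small at 0.28 (SE 0.07, edgeR adjusted p = 3.1e-04) beside a fall of −5.65 (SE 0.15). puf-9, which encodes a Pumilio-family RNA-binding protein, rose by 0.28 (SE 0.11, edgeR adjusted p = 0.022) and then fell by 4.24 (SE 0.22, edgeR adjusted p = 5.7e-83).

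Other loci of this class had few WT reads. Of the 122 loci, 40 reached the filter in WT. The rest entered the test with the help of a mutant library, so their low WT level and their rise were in part set by the filter. Where that library was of the single mutant, so was their later fall. nipi-3, a Tribbles-like pseudokinase gene, had 14.9 and 19.8 CPM in WT, 108 and 101 CPM in the single mutant, and 1.54 and 6.75 CPM in the double mutant. Its groups did not overlap, with steps of 2.54 (SE 0.25, edgeR adjusted p = 9.5e-24) and −4.54 (SE 0.35, edgeR adjusted p = 5.2e-37). yap-1, the Yes-associated protein homologue, had 0 and 0 reads in WT, 17 and 38 in the single mutant and 1 and 0 in the double mutant, which made it at least 9.2-fold higher in the single mutant than in WT. The pseudogene R193.3 had 0 and 2 reads in WT, 26 and 75 in the single mutant and 0 and 0 in the double mutant. That was a ratio of single mutant to WT of 25.3 (95% counting interval 6.84 to 212) and at least a 15.9-fold lower level in the double mutant than in the single mutant. sucl-1, a succinyl-CoA ligase gene, had 0 and 1 reads, then 17 and 26, then 1 and 4, a ratio of single mutant to WT of 21.6 (95% counting interval 3.67 to 872). idh-2, an isocitrate dehydrogenase gene, had 0 and 1 reads, then 16 and 33, then 1 and 3. Over the 122 loci the median level was 11.2 CPM in WT, 38.0 CPM in the single mutant and 5.68 CPM in the double mutant. Set against WT directly, the double mutant was lower at 50 of them (41%), higher at 6 (4.92%) and not called at 66, beside 37.9% lower and 26.8% higher of all tested genes, so the share of falls was near the background.

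Exceptions within the class kept most of their reads in the double mutant. F23A7.5 (X:16228922-16237185) had 2242 and 2300 CPM in WT, 3585 and 3707 CPM in the single mutant, and 2960 and 2720 CPM in the double mutant. It was above WT in both mutants, by 0.68 (SE 0.06, edgeR adjusted p = 8.0e-26) and 0.32 (SE 0.07, edgeR adjusted p = 3.2e-06), and its fall of −0.36 (SE 0.06, edgeR adjusted p = 6.2e-08) in the second step turned to 0.04 with totals without F56H9.8. mrp-4, an ABC transporter gene, had 166 and 214 CPM, then 392 and 377 CPM, then 238 and 234 CPM. Its steps were 0.99 (SE 0.11, edgeR adjusted p = 2.8e-19) and −0.70 (SE 0.10, edgeR adjusted p = 2.6e-10).

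Few loci rose in the double mutant. asp-3, an aspartyl protease gene, had 0 and 2 reads in WT, 10 and 33 in the single mutant and 29 and 37 in the double mutant, or 44.6 and 49.9 CPM in the last group. The ratio to WT was 35.0 (95% counting interval 9.31 to 295). tnt-2, a troponin T gene, had 1 and 2 reads, then 7 and 17, then 11 and 18, a ratio to WT of 10.3 (95% counting interval 3.18 to 52.6). cpr-6, a cathepsin B-like protease gene, had 2 and 1 reads, then 4 and 10, then 7 and 14. tnt-2 and cpr-6 reached the filter in the double mutant alone, so their rises were in part set by it. csq-1, the calsequestrin gene, went from 5.98 and 3.72 CPM in WT to 20.0 and 22.9 CPM in the double mutant, a log2 fold change of 2.15 (SE 0.57, edgeR adjusted p = 3.7e-04). act-4, an actin gene, rose by 1.81 (SE 0.57, edgeR adjusted p = 0.0027) against WT with libraries of 10.8 and 27 CPM, and is uncertain because other actin genes are nearly identical to it. All of these had 8 or fewer reads in the WT libraries together. Small RNAs from a locus and fragments of its own transcript cannot be told apart, since the sources used here do not say whether counting used strand.

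Another 21 loci rose in the single mutant and were not called in the second step. F02E8.4 had 40.4 and 45.9 CPM in WT, 88.1 and 94.7 CPM in the single mutant, and 78.4 and 68.8 CPM in the double mutant. Its first step was 1.09 (SE 0.20, edgeR adjusted p = 1.7e-07) and its second −0.34 (SE 0.18, edgeR adjusted p = 0.12). C28G1.2 and T25C12.3 rose by 0.77 (SE 0.24, edgeR adjusted p = 0.0034) and 1.16 (SE 0.32, edgeR adjusted p = 7.0e-04) in the first step. Over the class the median level was 7.58 CPM in WT, 18.8 CPM in the single mutant and 15.2 CPM in the double mutant. Only 2 of the 21 loci reached the filter in WT, so a rise of the others was in part set by it.

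At a few coding loci known by sequence name the level in the double mutant came back toward WT. F29G6.1 had 139 and 104 CPM in WT, 23.8 and 26.2 CPM in the single mutant, and 87.7 and 85.0 CPM in the double mutant. It fell by 2.23 (SE 0.20, edgeR adjusted p = 7.5e-28) and then rose by 1.75 (SE 0.22, edgeR adjusted p = 1.6e-14). F09A5.3 had 132 and 76.9 CPM, then 13.1 and 19.5 CPM, then 60 and 37.8 CPM, with steps of −2.53 (SE 0.23) and 1.45 (SE 0.28, edgeR adjusted p = 1.6e-06). F28B4.3, by contrast, was not called in the first step, at 0.07 (SE 0.24, edgeR adjusted p = 0.82), and rose by 1.32 (SE 0.19, edgeR adjusted p = 7.3e-11) in the second, from 42.4 ± 4.04 CPM to 103 ± 2.67 CPM (SD, n = 2). scav-1, a CD36-like scavenger receptor gene, was called in neither step, with 26.9 and 42.2 CPM, 38.1 and 37.6 CPM, and 53.8 and 51.3 CPM.

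Along the chromosome the loci were spread from X:261 to X:17711698 of an annotation that ends at 17718726. In left, middle and right parts of equal length, loci made up 170 of 936 genes on the left (18.2%), 136 of 1000 in the middle (13.6%) and 195 of 944 on the right (20.7%). The middle part held 4 of the 48 pseudogenes, against 28 on the left and 16 on the right. Loci that rose and then fell were 40.5% of those tested in the middle part, 25.7% on the left and 25.0% on the right. Loci that fell in both steps were 26.7%, 31.2% and 33.6% in the same order. The median log2 fold change in the single mutant against WT was 0.81 in the middle, −0.18 on the left and −0.34 on the right. Another scaling factor shifts these medians by a common amount. In the second step the medians were alike, at −2.20, −2.13 and −2.46.

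**Figure D4:**
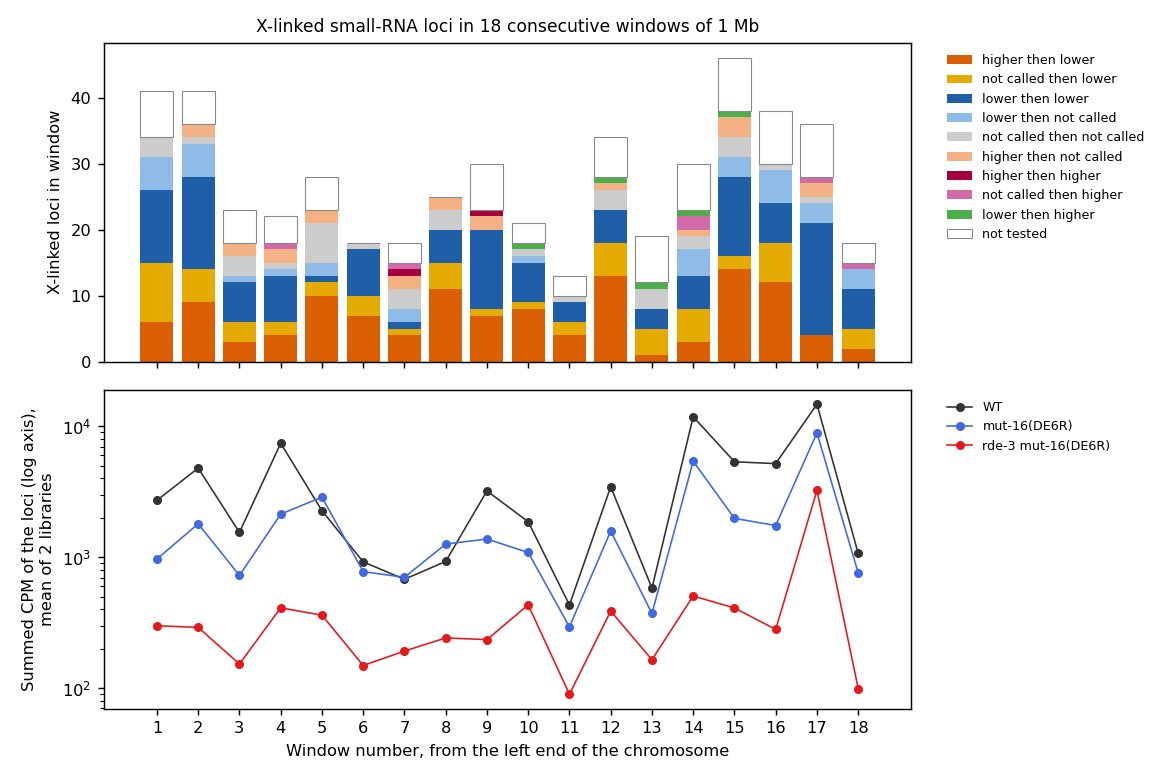
Loci in 18 consecutive windows of 1 Mb from the left end of X: the upper panel stacks their number by class of calls, with untested loci in white, and the lower panel gives the summed CPM of the loci (log axis, mean of 2 libraries) in each genotype. The line of the double mutant lies below both others in every window, and window 17 keeps the most CPM in all 3 genotypes.

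Read level was unevenly placed. Of the summed WT CPM of the loci, the right part held 56.6%, the left 28.3% and the middle 15.2%. In windows of 1 Mb numbered from the left end, window 17 held 21.4%, window 14 held 17.1% and window 4 held 10.8%. Window 14 rested mostly on F02C12.3, which had 87.1% of its reads. C44C10.5, a coding gene that fell in both steps, had 46.2% of the reads of window 12, and T13C5.6, another, had 42.1% of those of window 7. The first step of T13C5.6, −0.83 (SE 0.10), turned to 0.36 with library totals and 0.03 with totals without F56H9.8. Window 17, with F23A7.5, got-1.2 and F22H10.5, also had the largest share of its genes among the loci, 36 of 119 (30.3%), while window 11 had the smallest, 13 of 154 (8.44%). In the double mutant window 17 held 40.8% of the CPM of all loci. Its CPM there was 3247 with F23A7.5 and 407 without it.

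Windows of 1 Mb differed in the sign of the first step and were alike in that of the second. The median log2 fold change in the single mutant against WT ran from −1.36 in window 17 and −1.18 in window 9 to 0.95 in window 5 and 1.09 in window 7. For the double mutant against the single mutant it was below 0 in all 18 windows, from −1.14 in window 7 to −3.21 in window 9. In 0.5 Mb windows it was below 0 in 35 of 36. The exception, from 6.5 to 7 Mb with 4 tested loci, had a median of 0.3 and a summed level of 63.3 CPM in the single mutant and 78.5 CPM in the double mutant. Window 15 had the most loci, 46, and the most that rose and then fell, 14. In window 17, by contrast, 17 loci fell in both steps and 4 rose and then fell.

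Neighbouring tested loci had the same class in 104 of 411 pairs (25.3%). The share was 40 of 108 pairs (37.0%) where the genes lay under 5 kb apart and 21.1% at 5 kb or more. With classes as large as 30.8% and 29.6% of the tested loci, many pairs match whatever their order. The share that class sizes alone would give was not worked out, so neither these shares nor the runs below are read as clustering. Overlapping or adjacent genes can share reads, and 69 of the 501 loci were overlapped by a gene on the opposite strand and 22 by one on the same strand. The longest run of loci in a single class had 6 members that rose and then fell, from zipt-7.2 to nipi-3 over 105 kb (X:15506037-15610623). It held zipt-7.2, a zinc transporter gene, dyn-1, the dynamin gene, gas-1, a complex I subunit gene, usp-33, a ubiquitin protease gene, ent-2, a nucleoside transporter gene, and nipi-3. usp-33 had 32.9 and 27.3 CPM in WT, 82.1 and 93.8 CPM in the single mutant, and 1.54 and 12.1 CPM in the double mutant. gas-1 had 46.3 and 57.0 CPM, then 83.3 and 95.2 CPM, then 6.15 and 10.8 CPM. Both kept their groups apart, with first steps of 1.59 (SE 0.22, edgeR adjusted p = 7.7e-12) and 0.81 (SE 0.19, edgeR adjusted p = 8.2e-05). dyn-1 had 0 and 0 reads in WT, 8 and 22 in the single mutant and 0 and 1 in the double mutant, at least 5.02-fold higher in the single mutant than in WT.

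**Figure D5:**
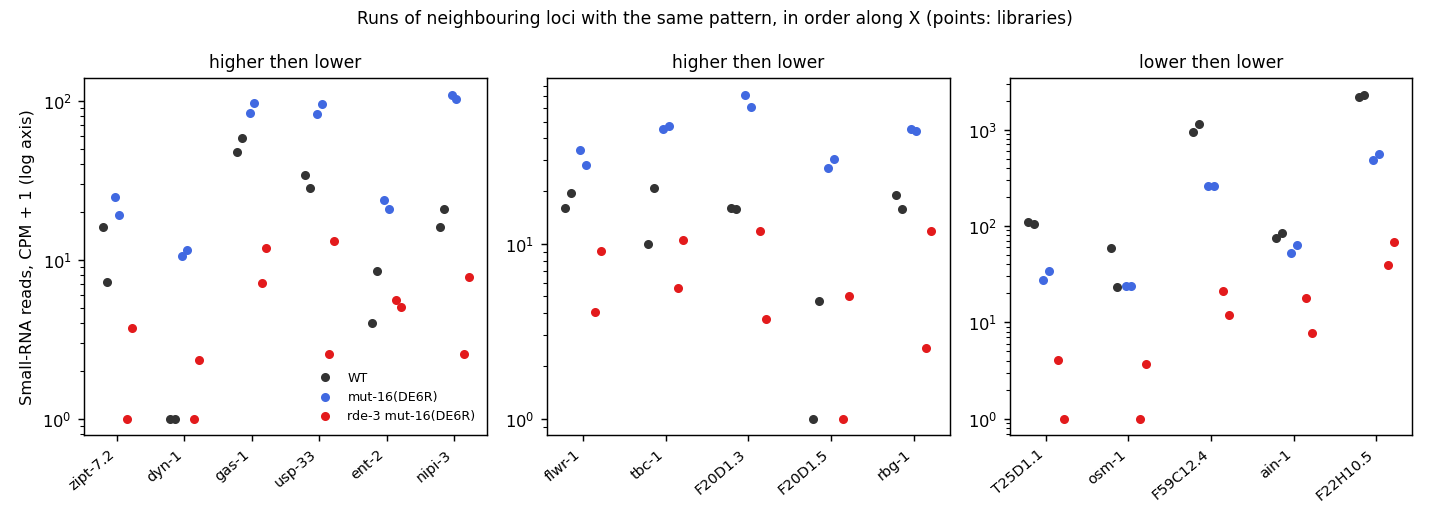
CPM + 1 (log axis) in each library of the loci in the 3 longest runs of neighbours with the same class, in their order along X: 6 and 5 loci that rose and then fell, and 5 that fell in both steps. In the first and second panels the single mutant points stand highest, and in the third the WT points do, apart from osm-1, where a WT library with 22.3 CPM meets the single mutant level.

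A tighter run of 5 loci that rose and then fell lay within 18.5 kb (X:14968900-14987365). In it were flwr-1, homologous to the fly gene flower, tbc-1, of the Rab GTPase-activating TBC family, F20D1.3, the pseudogene F20D1.5 and rbg-1, a homologue of a Rab3 GTPase-activating subunit. F20D1.3 changed most among those with over 3 reads in every group, from 14.9 and 14.9 CPM in WT to 70.2 and 59.5 CPM in the single mutant and 10.8 and 2.70 CPM in the double mutant. Its first step was 2.07 (SE 0.29, edgeR adjusted p = 1.0e-11). A run of 5 loci that fell in both steps spanned 167 kb (X:16519817-16687196) and held T25D1.1, osm-1, an intraflagellar transport gene, F59C12.4, ain-1 and the pseudogene F22H10.5. F59C12.4, with 150 exon bases, had 946 and 1129 CPM in WT, 256 and 257 CPM in the single mutant, and 20.0 and 10.8 CPM in the double mutant. In osm-1 the first step of −0.76 (SE 0.29, edgeR adjusted p = 0.016) rested on a single WT library, being 0.01 without WT replicate 1, and turned to 0.42 with library totals and 0.09 with totals without F56H9.8.

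Gene features that the calls did not use are given here by class, as a description with no test. A gene known by its sequence name alone was found in 33.6% of loci that rose and then fell, in 78% of those that fell in both steps, in 60% of those that fell in the first step alone and in 51.7% of those that fell in the second alone. Pseudogenes were 4.92%, 16.5%, 14.3% and 6.9% in the same order. The median exon length was 1892 bases in loci that rose and then fell and 1280 bases in those that fell in both steps. On the plus strand lay 60 of the 122 and 60 of the 127 genes, and 19 and 21 of them were overlapped by a gene on the opposite strand. The following levels come from the reads the calls were made on, so they restate how the classes were chosen. Per kilobase of exon, the median WT level was 5.79 CPM in loci that rose and then fell and 90.8 CPM in those that fell in both steps. As percent of reads, the loci that rose and then fell went from 0.907% ± 0.0213 in WT to 3.19% ± 0.0101 and 1.29% ± 0.0456. Their summed CPM was 7275, 13788 and 4078 in the same order. The double mutant thus lay above WT in percent and below it in CPM. F23A7.5 alone made up most of the CPM of the class in the double mutant. Loci that fell in both steps went from 6.77% ± 0.0834 to 3.83% ± 0.00136 and 0.492% ± 0.0369.

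Gene lists chosen by function gave few loci. Of 5 X genes of the small RNA machinery 3 had 30 reads. ain-1, the GW182 homologue of the microRNA pathway, fell by 2.33 (SE 0.32, edgeR adjusted p = 1.7e-12) in the second step; its first step of −0.44 (SE 0.19, edgeR adjusted p = 0.039) turned to 0.75 with library totals and 0.42 with totals without F56H9.8. nrde-3, a nuclear Argonaute gene, had 17.9 and 22.3 CPM, 17.9 and 15.7 CPM, and 7.69 and 8.1 CPM, and the microRNA Argonaute gene alg-1 was not tested. Of 28 development and signalling genes 5 were loci and 4 were tested, of which 3 rose in the single mutant and 3 fell in the second step, beside 22.1% and 26.2% of all tested genes and 35.2% and 74.5% of the tested X loci. dpy-22, a Mediator subunit gene, had 35.9 and 29.8 CPM in WT, 92.8 and 83.8 CPM in the single mutant, and 53.8 and 47.2 CPM in the double mutant. lin-15A, a synthetic multivulva gene overlapped by lin-15B, rose by 0.55 (SE 0.18, edgeR adjusted p = 0.0062) and fell by 2.58 (SE 0.27, edgeR adjusted p = 5.6e-21).

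Of 134 X-linked neuron genes, chemoreceptor families included, 5 were loci and 3 were tested. npr-11 and npr-40 fell in the single mutant, while unc-18, the Munc18 gene, rose from 1 and 2 reads in WT to 20 and 52, with 1 and 2 in the double mutant. That was a ratio of single mutant to WT of 12.0 (95% counting interval 3.96 to 59.8). Of 8 genes on the muscle list 3 were loci, all tested. unc-84, a SUN-domain nuclear envelope gene not particular to muscle, had 15 and 38 reads in the single mutant and 0 and 2 in the double mutant. That was a ratio of 12.5 (95% counting interval 3.3 to 106). tnt-2 rose as given above, and unc-78, which encodes an actin-interacting protein, was not called in either step. Of 33 intestine and stress genes only asp-4, an aspartyl protease gene, had 30 reads, with 7.47 and 6.2 CPM in WT, 3.57 and 7.62 CPM in the single mutant, and 10.8 and 18.9 CPM in the double mutant. Its second step was 1.21 (SE 0.49, edgeR adjusted p = 0.033). asp-4 reached the filter in the double mutant alone, so this rise was in part set by it. Of the 2 chromatin and germline genes on X none had 30 reads. Taken over all its genes on X, the muscle list held 46 reads in WT, 137 in the single mutant and 69 in the double mutant. These were 0.00398%, 0.0108% and 0.0156% of reads, and the 137 include the 15 and 38 of unc-84. The intestine and stress list held 0.00613%, 0.00644% and 0.0101%. Such shares are to be read beside the bulk of genes. Scaled by totals without F56H9.8, the median log2 fold change of all tested genes was 0.74 in the single mutant and 1.23 in the double mutant against WT. The part of these tissues in the rises of asp-3, tnt-2, cpr-6, csq-1 and act-4 was not tested.

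The 89 loci left untested held 1346 reads in WT, 1631 in the single mutant and 352 in the double mutant, 0.114%, 0.124% and 0.0802% of reads. Total reads per locus ran from 30 to 29727 with a median of 107; 257 loci had 100 or more and 35 had 1000 or more. The minimum of 30 reads cut through a dense range, with 70 loci at 30 to 39 reads and 123 X genes at 20 to 29. Just inside it, T25D1.2 had 23 reads in WT, 7 in the single mutant and 0 in the double mutant, and K04C1.5 had 4, 23 and 3. Just outside it at 29 reads, F41C6.7 had 15, 10 and 4, and the muscle gene unc-27 had 5, 6 and 18.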

How the data were processed

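Per the labels' protocols, small RNAs of whole worms were extracted with Trizol, treated with PIR-1, ligated to linkers, reverse transcribed, amplified and size-selected. Per the submitters' processing notes, cutadapt 4.9, Bowtie 1.3.1 and the WBcel235 genome were used. No source used here names the counting program, its use of strand, or its treatment of duplicates and of reads with several matches. The authors deposited whole-number counts per transcript for 6 libraries; 20 columns of tethered strains were not used. Of 34325 identifiers, 33755 were found as transcripts and 190 as sequence names in the annotation of that genome, and 380, with 1.97% of the reads, matched none. Of the latter, 8 were placed by RefSeq and 365 genes had no position. Transcripts were summed to genes.

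The members and lists were chosen with earlier results of these data known. The test was the quasi-likelihood F test of edgeR 4.0.16 (R 4.3.3; robust, TMM, 1 coefficient per genotype, 3 residual degrees of freedom) on 5312 genes kept by its filter (minimum count 10, minimum total 15), which held 98.3% of the reads. Benjamini-Hochberg adjustment ran over all of them, at 0.05. The SE is the absolute log2 fold change divided by the square root of F, and restates the p. A group with no read gave a bound against 3 reads over its libraries, and a group with 1 to 3 reads a ratio with its exact 95% interval; these cover counting error only. A single read was worth 0.476 to 1.54 CPM. On counts simulated for mut-16(DE6R) against WT over 4773 genes, 70 of 93 genes changed 2-fold, 91 of 93 changed 4-fold and 8 of 4587 unchanged genes were called. The simulation changed few genes, up and down alike, with the spread and scale of the fit itself. It therefore could not test the choice of scale or data in which most genes change.

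Classes combined a call in mut-16(DE6R) against WT with one in the double against the single mutant. Windows were assigned by gene midpoint. Named genes were the 10 highest in WT, the 8 largest rises and falls per comparison (5 CPM or more, no overlap), up to 3 per class, the leader of each 1 Mb window, the 3 longest runs and up to 4 per list, of which the text gives a part; F59C12.4 stands among the runs. Alternatives were library totals with and without F56H9.8, upper-quartile factors, DESeq2 1.42.0, no filter, a replicate block, a fit of the 2 groups compared, each library left out, a minimum of 100 reads, and 0.5 Mb and 2 Mb windows. No sequence was read, since no genome was used here.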

Additional observations from a re-analysis of the deposited data

How the results depend on the processing

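Falls in the double mutant kept their count within 1.5 times under the alternatives run, from 196 to 298 loci against WT and from 221 to 333 against the single mutant. The number of loci tested moved as well, so a steady count is not a steady share. Without the filter, falls numbered 285 against WT and 333 against the single mutant of 501 loci, beside 2699 and 1645 of 16519 genes. In the fits of the 2 groups compared they were 219 of 280 and 258 of 300 loci, beside 1896 of 4834 and 1136 of 4170 genes. Other counts moved with the setting, and the cause was not tested. The counts below are of loci alone, and counts over all tested genes moved with the setting too. For the single mutant against WT, the count of rises was 241 with library totals, 76 with DESeq2 and 90 at 100 reads, and the count of falls 100 with library totals; leaving out a library gave 91 to 151 rises and 143 to 198 falls. For the double mutant against WT, rises numbered 73 with library totals, 80 with F56H9.8 left out of the totals, 43 with upper-quartile factors, 10 with DESeq2 and 15 at 100 reads, and 14 to 20 with a library left out. Against the single mutant they numbered 26 with totals without F56H9.8, 21 with upper-quartile factors, 5 with DESeq2, 5 without the filter, 7 in the fit of those groups and 5 at 100 reads, and 6 to 11 with a library left out. Loci that rose and then fell numbered 193 with library totals, 59 with DESeq2 and 79 to 113 with a library left out, the lowest without the single mutant replicate 2; loci that fell in both steps numbered 73 with library totals, 74 with F56H9.8 left out of these and 101 to 124 with a library left out. At 100 reads the shares of reads in WT, the single and the double mutant were 8.23%, 7.5% and 2.2%. For all 501 loci, as percent of all counted reads, they were 4.06%, 4.68% and 1.01%. The leading window held 16.5% of WT CPM at 0.5 Mb and 22.9% at 2 Mb. Without the filter 172 loci rose and 163 fell in the single mutant against WT.

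Same-numbered libraries did not deviate together (correlations of −0.000684, −0.0161 and −0.0235 over 5312 genes), so replicate numbers were not taken as pairs; with a replicate block 134 loci rose and 162 fell in the single mutant against WT, 23 rose and 259 fell in the double mutant against WT, and 13 rose and 302 fell against the single mutant. In the single mutant against WT, library totals turned the sign of F02C12.3 (0.10), got-1.2 (0.39), T13C5.6 (0.36), gfi-3 (0.89), osm-1 (0.42), ain-1 (0.75) and nrde-3 (0.87), and totals without F56H9.8 that of got-1.2 (0.05), T13C5.6 (0.03), gfi-3 (0.56), osm-1 (0.09) and ain-1 (0.42). osm-1 also turned without WT replicate 1 (0.01); a WT library left out gave −1.39 to 0.01 for it. In the double mutant against WT, F29G6.1 turned to 0.63, 0.78 and 0.06 (library totals, totals leaving out F56H9.8, upper-quartile factors), and F09A5.3 to 0.02 and 0.18 with the former pair. F23A7.5 turned to 0.04 in the double mutant against the single mutant with totals without F56H9.8. Loci with under 100 reads are limited by counting error.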

Other observations

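X genes outside the rule were measured as well. The 2355 X genes under 30 reads, 868 of them with no read, held 0.309% ± 0.0212 (SD, n = 2) of reads in WT, 0.360% ± 0.0143 in the single mutant and 0.269% ± 0.00543 in the double mutant. The 24 genes left out by name held 0.548%, 0.691% and 0.262%. Among these, the linker histone gene his-24 had 2846 reads in WT, 4177 in the single mutant and 55 in the double mutant. The gene xol-1, the switch gene of sex determination, had 114, 17 and 0 reads. Vitellogenin genes went the other way, with 41, 361 and 366 reads at vit-2. All X genes together held 9.48% ± 0.0734, 9.11% ± 0.0149 and 3.04% ± 0.00998 of reads.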
